A study of Mus musculus with 35 samples.

Results

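The genes described here are 10 markers of the antigen-presenting cells of the skin: Cd207, Cd209a, Xcr1, Flt3, Ccr7, Cd74, H2-Aa, H2-Ab1, H2-Eb1 and Ciita. They were taken by symbol from the 36106 genes of the deposited count table, and all 10 were found, each with 1 identifier. RNA sequencing had been done on whole skin from 10-week-old female mice of the inbred strain C57BL/6J. A dose of 25 Gy was given to the skin of the left flank, and the treated skin was then shaved. The 35 samples were 3 from sham mice, which had no radiation, and 4 labelled radiated and 4 labelled control at each of weeks 1, 2, 3 and 4 after radiation. No group carried a transgene or an engineered allele according to the labels. The body site of the control biopsies is not stated. The series text gives 19 mice for the 35 samples, so radiated and control samples that share a week and a number are treated as 1 mouse each. That pairing is an inference from the numbers of samples and mice.

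Dendritic cells take up material in the tissue, cut proteins into peptides and show the peptides to CD4 T cells on major histocompatibility complex (MHC) class II molecules. In skin they include Langerhans cells, which sit among the keratinocytes of the epidermis, renew themselves there and depend on interleukin-34 from keratinocytes, and the dermal conventional dendritic cells, which come from bone marrow precursors that need the receptor FLT3. Both kinds travel to the lymph node after they mature, guided by the receptor CCR7.

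The picture in radiated skin was a split one. Langerin (Cd207), the lectin that marks Langerhans cells, was 6.51-fold lower than in control skin at week 3 and 7.92-fold lower at week 4. Over the same weeks Flt3 was 3.51-fold and 2.69-fold higher, Ccr7 rose from a handful of counts, and Ciita, the switch for class II transcription, was 2.15-fold and 1.501-fold higher. The class II genes H2-Aa, H2-Ab1 and H2-Eb1 and their chaperone Cd74 did not overlap with control skin at week 2, save for 1 radiated H2-Aa sample. The share of all genes without overlap is not given. None of these 4 passed edgeR's test in the fit of the 8 libraries of week 2 (adjusted p from 0.118 to 0.135). At week 4 their means lay within 1.23-fold of control skin. Cd209a and Xcr1, markers of the main kinds of dermal dendritic cell, did not pass edgeR's test in any week without the mouse as a block.

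Levels are given as CPM, a gene's counts scaled to a library of 1e+06 counts, with library sizes adjusted for composition by TMM. A difference is a log2 fold change with its standard error (SE) from edgeR's quasi-likelihood F test, and a gene was called when its adjusted p over all genes tested was under 0.05. Library totals ran from 17362853 to 28487885 counts, so 3 counts correspond to 0.105 to 0.173 CPM. In radiated against control skin, 0 of 9 members tested were called at week 1, where 0.0% of 17578 genes were called. At week 2 the count was 0 of 9, with 0.00577% of 17345 genes called. At week 3 it was 4 of 10, with 27.2% of 17653 genes called, and at week 4 it was 4 of 10, with 48.4% of 17850 genes called. In both of the later weeks 3 members were higher and 1 was lower, while 13.6% of all genes were higher and 13.6% lower at week 3 and 24.2% were higher and 24.2% lower at week 4. The members' share was therefore near that of all genes, and it is the sizes and directions of the single genes that are described below. The median log2 fold change of the members tested was 0.32, 1.32, 0.48 and 0.11 at weeks 1 to 4, against 0.05, 0.00, 0.08 and 0.02 over all genes tested. With the mouse as a block, 5 of 9 members were called at week 2, all higher, where 3.7% of all genes were called and 2.85% were called higher. Those 5 were Cd74, H2-Aa, H2-Ab1, H2-Eb1 and Cd209a. Beside the 0 calls of week 1, 1 member (Xcr1) had an unadjusted p under 0.05 and DESeq2 called 0. Beside those of week 2, 7 members had an unadjusted p under 0.05 and DESeq2 called 6. Over all genes, 2477 of 17578 at week 1 and 2388 of 17345 at week 2 had an unadjusted p under 0.05 in edgeR's test. The share of all genes that DESeq2 called is not given here.

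**Figure D1:**
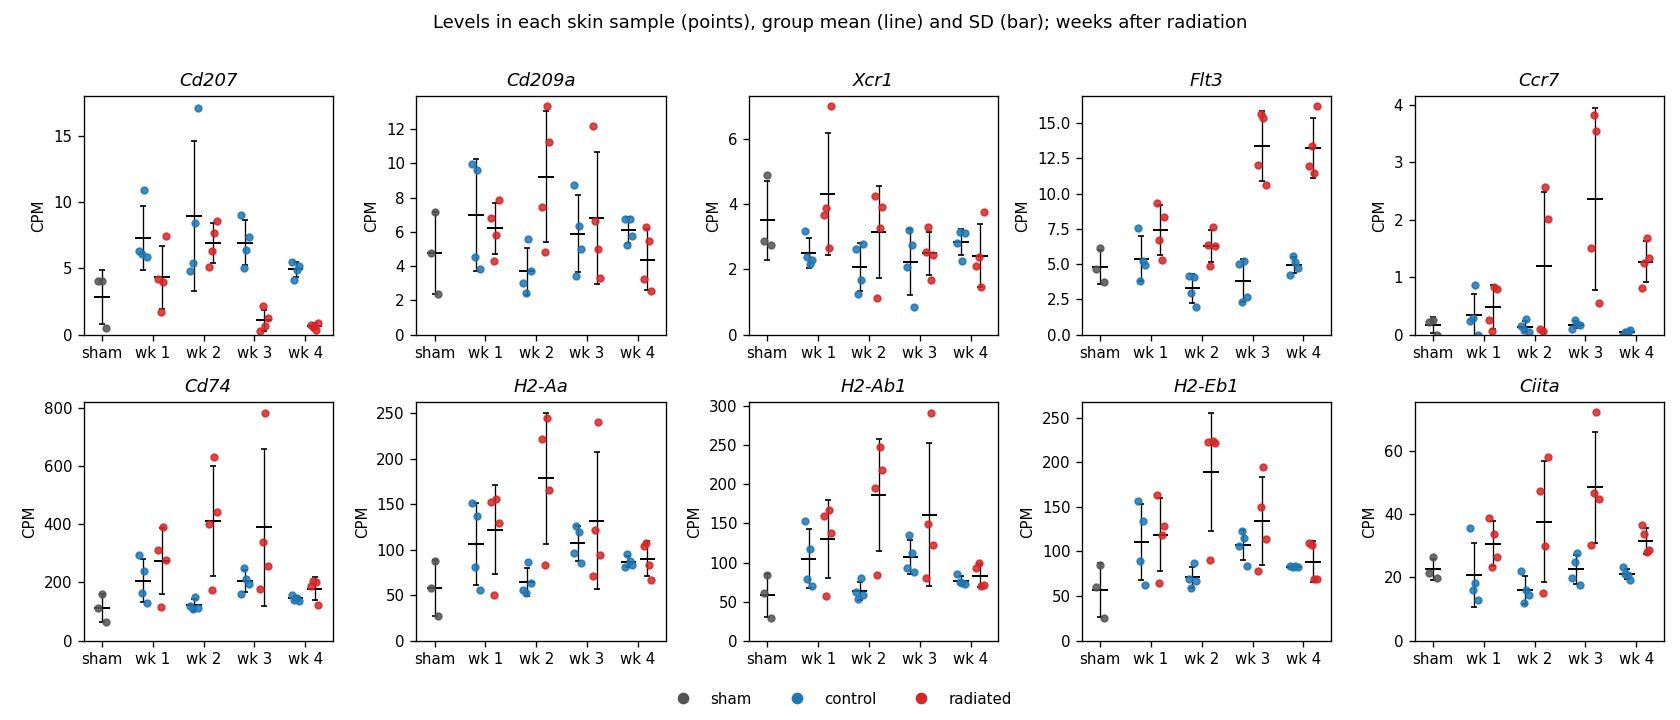
Level of each of the 10 genes in every sample, in CPM on a linear axis from 0, by group (grey sham, blue control, red radiated; weeks after radiation on the horizontal axis). Points are samples, black lines are group means and bars are 1 SD, cut off at 0; Cd207 lies near 0 in radiated skin of weeks 3 and 4, where Flt3 lies above 10 CPM in all 8 samples.

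Cd207 encodes langerin, the lectin that forms the Birbeck granules of Langerhans cells and is also made by a subset of dermal type 1 dendritic cells (GRCm38, 6:83671215-83677857, minus strand). In control skin its samples read 9.05, 5.00, 6.41 and 7.36 CPM at week 3 and 5.50, 4.16, 4.91 and 5.19 CPM at week 4. In radiated skin they read 0.274, 2.15, 0.609 and 1.24 CPM at week 3 and 0.683, 0.543, 0.377 and 0.892 CPM at week 4. No radiated sample of either week reached the lowest control sample of that week. On the log2 scale the difference was -2.68 (SE 0.521, adjusted p = 0.0062) at week 3 and -2.97 (SE 0.269, adjusted p = 2.16e-05) at week 4, lower in 4 of 4 same-numbered pairs each time. Bulk RNA cannot tell fewer Langerhans cells apart from less Cd207 RNA per cell.

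Earlier the groups overlapped. At week 1 Cd207 read 4.33 ± 2.38 CPM (SD, n = 4) in radiated and 7.28 ± 2.44 CPM (n = 4) in control skin, or -0.74 as a log2 fold change (SE 0.393, adjusted p = 0.41). At week 2 the values were 6.91 ± 1.52 and 8.95 ± 5.69 CPM, or -0.37 (SE 0.392, adjusted p = 0.71). Control skin of week 2 held the highest single value, 17.2 CPM in replicate 4, and without that library the difference was 0.14. The radiated minus control difference of Cd207 changed over the 4 weeks (adjusted p = 0.00534 for the 3 interaction terms of week and radiation, fitted over the 32 libraries that are not sham), as it did for 15.6% of all genes tested. Between weeks 2 and 3 it fell by 2.31 on the log2 scale (SE 0.619, adjusted p = 0.0237), the only step with a member called, where 4.1% of all genes were called lower and 6.9% in all. Both calls were lost when all libraries numbered 1 or all numbered 3 were left out, with adjusted p up to 0.0876 for the change over weeks and 0.188 for the step.

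Sham skin does not give Cd207 a firm baseline. Its samples read 4.02, 4.03 and 0.465 CPM, so that replicate 3 lay inside the range of radiated skin at week 4. Against sham, radiated skin of week 4 was lower by a difference of -2.15 on the log2 scale (SE 0.658, adjusted p = 0.042), and 1 of the 7 fits that leave out a library kept that call. At week 3 the difference was -1.38 (SE 0.805, adjusted p = 0.267). By ratio of means, radiated skin was 2.66-fold lower than sham at week 3 and 4.55-fold lower at week 4. Every control sample of every week lay above every sham sample, with means 2.57, 3.15, 2.45 and 1.74 times that of sham in weeks 1 to 4. None of these control differences passed edgeR's test (adjusted p from 0.18 to 0.443). Sham replicate 3 also had the lowest Cd74, H2-Aa, H2-Ab1 and H2-Eb1 of all 35 libraries, at 62.7, 26.8, 28.4 and 25.2 CPM.

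The genes that keep Langerhans cells in the epidermis moved in both directions. Il34, the keratinocyte cytokine on which these cells depend, read 24.0, 17.7, 20.3 and 27.4 CPM in control skin and 3.47, 5.36, 4.46 and 10.8 CPM in radiated skin at week 3. At week 4 it read 36.3, 35.6, 41.9 and 32.5 CPM in control and 7.47, 9.43, 7.46 and 6.38 CPM in radiated skin. The Il34 groups did not overlap in either week, with log2 fold changes of -1.87 (SE 0.339, adjusted p = 0.00463) and -2.24 (SE 0.139, adjusted p = 3.47e-06). Its receptor gene Csf1r, which macrophages also express, rose by 1.45 (adjusted p = 0.0333) and 2.25 (adjusted p = 4.08e-06).

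Of the 11 genes in a list of Langerhans growth and niche genes, all tested, 4 were higher and 1 lower at week 3, and 7 were higher and 3 lower at week 4. This and the later list counts stand against 27.2% of all genes called at week 3 and 48.4% at week 4. The transcription factor genes Runx3 and Spi1, which Langerhans cells share with other leukocytes, rose by 2.49 and 2.06 at week 3 and by 1.71 and 2.48 at week 4. Id2 and Ahr, also needed by Langerhans cells, were lower at week 4 with log2 fold changes of -0.88 (adjusted p = 0.000956) and -1.06 (adjusted p = 0.000109). Against sham skin at week 4, 5 of the 11 genes were called, 4 higher and 1 lower, where 26.7% of all genes were called. Id2 and Ahr were not among those 5, while Il34 was. Epcam, an adhesion gene of Langerhans cells and of follicle keratinocytes, read 74.3 ± 28.6 CPM against 147 ± 14.5 CPM at week 4, a difference of -0.98 on the log2 scale (SE 0.241, adjusted p = 0.00796), and -1.17 (SE 0.411, adjusted p = 0.0608) at week 3.

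Markers of the tissue layers moved in the same weeks. Of 6 keratinocyte markers, 1 was higher and 1 lower at week 3, and 1 was higher and 4 lower at week 4, when Krt10 and Lor, of the upper epidermis, had log2 fold changes of -2.59 and -2.26 and Krt14, of the basal layer, 2.03. Their summed level was 5395 to 24100 CPM in radiated and 13040 to 17740 CPM in control skin at week 3, and 11280 to 16240 against 18780 to 20970 CPM at week 4. Of 6 fibroblast markers, 1 was higher at week 3 and 6 at week 4, with the collagen gene Col1a1 up by 4.10. Of 5 skeletal muscle markers, 4 were lower in each week, with Myh4, a myosin of fast fibres, at -2.71 and -4.02. Of 5 hair follicle markers, 4 were higher at week 4, with the inner root sheath keratin gene Krt71 up by 8.58 (SE 2.06, adjusted p = 0.00675), to which DESeq2 gave no adjusted p. The radiated samples of week 4 were far apart in it, from 1.47 to 1334 CPM, against 0.598 to 1.64 CPM in control skin. Of 4 adipocyte markers, Adipoq was lower at week 3 (-0.68, adjusted p = 0.0255), and at week 4 its adjusted p was 0.066 (0.0422 with the block). The part of these shifts in the values of Cd207, Il34 and Epcam was not tested.

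Flt3 encodes the receptor on which dendritic cell precursors and conventional dendritic cells depend (5:147330741-147400489, minus strand). Radiated skin read 12.0, 15.6, 15.3 and 10.6 CPM at week 3 and 12.0, 13.4, 11.4 and 16.2 CPM at week 4. Control skin read 5.00, 2.33, 5.25 and 2.68 CPM at week 3 and 4.23, 5.57, 5.13 and 4.73 CPM at week 4. Every radiated sample of these weeks lay above every control and every sham sample. On the log2 scale the difference was 1.84 (SE 0.305, adjusted p = 0.00328) and 1.43 (SE 0.155, adjusted p = 6.04e-05), higher in 4 of 4 pairs each time.

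Against sham skin, which read 4.64, 6.11 and 3.72 CPM, Flt3 rose by 1.51 (SE 0.274, adjusted p = 0.0105) at week 3 and 1.497 (SE 0.234, adjusted p = 0.00249) at week 4, and both calls held in all 7 fits that leave out a library. At week 2 the groups did not overlap either, at 6.28 ± 1.14 against 3.30 ± 1.03 CPM, with a log2 fold change of 0.93 (SE 0.285) that did not pass (adjusted p = 0.203; 0.1 with the mouse as a block), while the fit of all 35 libraries called it by a small margin (adjusted p = 0.04998). At week 1 the difference was 0.47 (SE 0.268, adjusted p = 0.432). The change of the difference over the weeks passed (adjusted p = 0.0374) and was lost in each of the 4 fits that leave out all libraries of 1 number, with adjusted p from 0.0954 to 0.174. The gene of its ligand, Flt3l, read 7.32 ± 1.26 against 6.59 ± 1.71 CPM at week 3 (log2 fold change 0.18, adjusted p = 0.609) and was lower at week 4, with 5.84 ± 0.725 against 9.16 ± 1.66 CPM (-0.64, adjusted p = 0.0115).

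Other markers shared by conventional dendritic cells did not move as a block. Among the 5 genes of that list other than Flt3, 2 were higher and 1 lower at week 3, and 2 were higher and 2 lower at week 4. The gene lower at week 3 was not called with the mouse as a block. Itgax, the integrin CD11c, which macrophages also carry, rose by 1.51 (adjusted p = 0.00814) and 1.61 (adjusted p = 0.000123). Btla, a receptor of lymphocytes and dendritic cells, rose by 2.14 and 2.94. Zbtb46, the transcription factor that separates conventional dendritic cells from macrophages, read 15.5 ± 1.58 against 16.0 ± 2.56 CPM at week 3 and 13.1 ± 2.56 against 11.8 ± 2.71 CPM at week 4, log2 fold changes of -0.02 (adjusted p = 0.944) and 0.16 (adjusted p = 0.525).

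Xcr1 encodes the chemokine receptor of type 1 conventional dendritic cells, which present antigen to CD8 T cells (9:123852315-123862029, minus strand). Its samples in radiated skin read 3.67, 3.88, 2.65 and 6.99 CPM at week 1, 4.25, 1.11, 3.25 and 3.92 at week 2, 2.51, 3.31, 1.68 and 2.44 at week 3, and 2.09, 2.37, 1.47 and 3.75 at week 4. Control skin lay between 0.856 and 3.19 CPM in all weeks and sham skin between 2.74 and 4.90 CPM. The groups overlapped in every week, and the log2 fold changes of 0.79, 0.60, 0.18 and -0.22 had adjusted p from 0.315 to 0.766. The SEs of these differences ran from 0.288 to 0.434.

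Of the 8 other genes of the type 1 list tested, 4 were higher and 1 lower at week 3, where 27.2% of all genes were called, and 3 were higher and 1 lower at week 4, where 48.4% were called, a share near that of the list. Clec9a, a receptor for dead cells on this cell type, read 2.80 ± 0.424 against 1.35 ± 0.282 CPM at week 3 and 2.97 ± 0.106 against 1.44 ± 0.425 CPM at week 4, log2 fold changes of 1.07 (adjusted p = 0.0202; 0.0559 with the mouse as a block) and 1.04 (adjusted p = 0.00563). Irf8, a transcription factor that macrophages and B cells also use, rose by 2.10 and 2.57, and Wdfy4, needed for cross-presentation, by 1.84 and 1.91. Itgae, the integrin CD103, rose by 1.49 at week 3. Cadm1, an adhesion gene that is not limited to dendritic cells, was the one that was lower, with log2 fold changes of -1.01 and -0.94. Batf3, the factor that sets up this cell type, read 1.66 ± 0.541 against 1.35 ± 0.797 CPM and 1.03 ± 0.346 against 0.662 ± 0.197 CPM and passed in neither week (adjusted p = 0.663 and 0.156).

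Cd209a encodes the mouse homologue of the lectin DC-SIGN and marks type 2 dermal dendritic cells and cells derived from monocytes (8:3743397-3748984, minus strand). At week 2 it read 7.43, 4.79, 13.4 and 11.3 CPM in radiated skin and 3.04, 2.41, 5.59 and 3.70 CPM in control skin. It was higher in 4 of 4 pairs, with a log2 fold change of 1.32 (SE 0.371) that passed with the mouse as a block (adjusted p = 0.0215) and not without it (adjusted p = 0.172), while DESeq2 called it without the block (adjusted p = 0.0212). The differences of the other weeks were -0.16 (SE 0.341), 0.24 (SE 0.421) and -0.47 (SE 0.276) at weeks 1, 3 and 4, with adjusted p of 0.844, 0.699 and 0.182.

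Within the type 2 list, the 6 other genes tested were split, with 1 higher and 3 lower at week 3 and 3 higher and 3 lower at week 4. Mgl2, the lectin CD301b of a dermal type 2 subset, was 111 ± 62.9 against 23.4 ± 7.05 CPM at week 2, a difference of 2.26 on the log2 scale (SE 0.459, adjusted p = 0.126; 0.0276 with the mouse as a block). It was then lower, at 26.3 ± 9.86 against 57.6 ± 19.1 CPM at week 3 (-1.11, adjusted p = 0.0293) and 7.18 ± 4.91 against 32.1 ± 5.50 CPM at week 4 (-2.15, adjusted p = 0.0031). Irf4, the transcription factor of type 2 cells, was lower by log2 fold changes of -1.41 (adjusted p = 0.0283) and -2.46 (adjusted p = 1.93e-05). Klf4, which keratinocytes also express, was lower by -1.49 and -1.66. Its means of 479 in radiated and 1368 CPM in control skin at week 3 made up much of the summed level of the list. That sum was also low in sham skin, at 576 to 899 CPM. At week 4 it was 762 to 922 CPM in radiated and 1396 to 1961 CPM in control skin. Sirpa, a receptor that macrophages share, rose by 1.64 and 1.84.

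Ccr7 encodes the chemokine receptor that takes maturing dendritic cells, Langerhans cells and T cells into lymph vessels and nodes (11:99144196-99155077, minus strand). It was the rarest of the 10 genes outside radiated skin. The control samples held 2, 6, 4 and 3 counts at week 3 and 0, 1, 1 and 2 counts at week 4, and the sham samples 5, 6 and 0. The radiated samples held 33, 82, 93 and 12 counts at week 3 and 19, 32, 40 and 30 counts at week 4, or 1.51, 3.82, 3.54 and 0.553 CPM and 0.811, 1.24, 1.68 and 1.34 CPM. Every radiated sample of these weeks exceeded every control sample of its own week and every sham sample; 1 control sample of week 1 reached 18 counts.

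The pooled counts of Ccr7 gave a ratio of 13.8 (95% exact binomial interval 8.16 to 25.0) at week 3, from 220 against 15 counts, and of 28.8 (11.0 to 107) at week 4, from 121 against 4 counts. These intervals cover counting error only. The fitted log2 fold changes were 3.75 (SE 0.673, adjusted p = 0.00447) and 4.70 (SE 0.524, adjusted p = 7.13e-05), and with so few control counts their size depends on the prior count of the fit. Against sham skin the change was 3.83 (SE 0.947, adjusted p = 0.0268) at week 3, a call that held in 2 of the 7 fits that leave out a library, and 2.94 (SE 0.696, adjusted p = 0.0153) at week 4, where it held in all 7. At weeks 1 and 2 Ccr7 was under the filter on low counts. At week 2 the radiated samples were far apart, with 2, 1, 57 and 37 counts.

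Of the other 9 mature dendritic cell genes tested, 3 were higher at week 3, near the 27.2% of all genes called, and 5 were higher and 1 lower at week 4, where 48.4% were called. Fscn1, the actin-bundling protein of mature dendritic cells, which is not limited to them, read 59.0, 49.3, 193 and 56.9 CPM against 7.11, 14.5, 12.4 and 17.9 CPM in control skin at week 3. At week 4 it read 55.3, 52.9, 111 and 84.3 CPM against 6.88, 4.11, 2.69 and 3.50 CPM. The Fscn1 groups were far apart in both weeks, with log2 fold changes of 2.82 (SE 0.492, adjusted p = 0.00402) and 4.16 (SE 0.345, adjusted p = 1.34e-05). The costimulatory genes Cd80 and Cd40 rose by 1.65 and 1.03 at week 3 and by 1.79 and 1.16 at week 4. Ccl22, a chemokine of mature dendritic cells that draws regulatory T cells, read 5.61 ± 2.11 against 5.17 ± 1.73 CPM at week 3 (adjusted p = 0.778) and was lower at week 4, at 2.72 ± 0.444 against 5.66 ± 2.21 CPM (-1.04, adjusted p = 0.0121). Ccl17, its close relative, was under the filter, at 0.173 ± 0.137 against 0.214 ± 0.188 CPM and 0.0747 ± 0.0737 against 0.0132 ± 0.0264 CPM.

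The ligands of CCR7 and the receptor that clears them were also measured. Ccl19 rose by 1.23 (SE 0.204, adjusted p = 0.00083) at week 4, from 2.37 ± 0.203 to 5.53 ± 1.34 CPM, and by 0.79 (adjusted p = 0.0632) at week 3 it did not pass. Ccl21a, made by lymph vessels, read 17.9 ± 9.97 against 12.0 ± 3.86 CPM at week 3 and 24.9 ± 7.00 against 22.4 ± 6.31 CPM at week 4, with adjusted p of 0.256 and 0.619. Both genes have near-identical copies in the mouse genome, so their counts depend on how reads were shared out. Ackr4, the scavenger of both ligands, was lower, with log2 fold changes of -1.66 (adjusted p = 0.0138) and -2.20 (adjusted p = 5.77e-06).

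**Figure D2:**
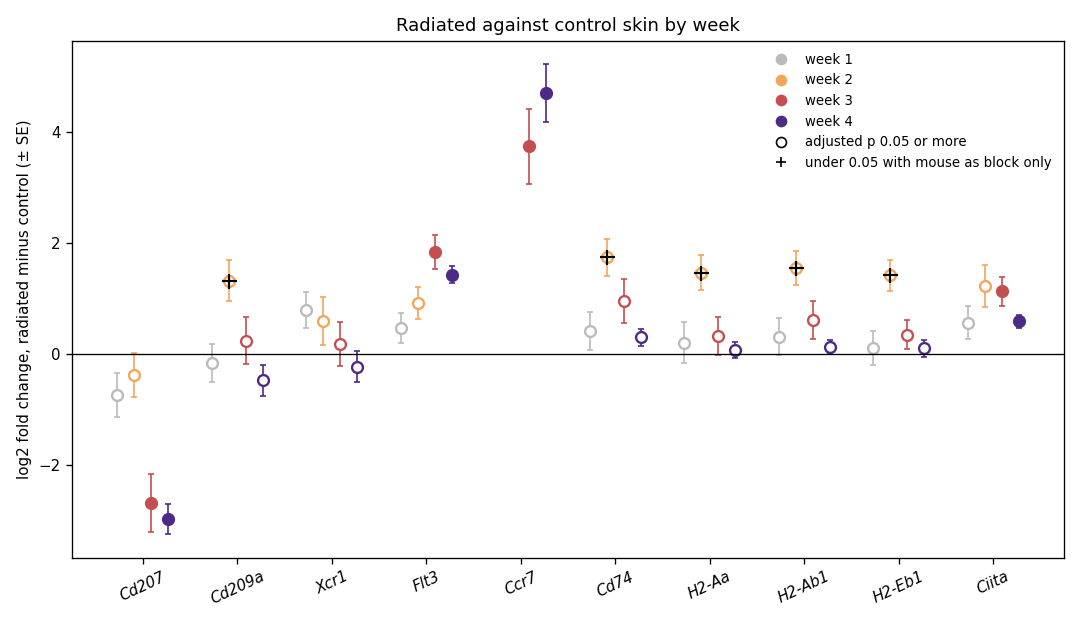
Log2 fold change of radiated against control skin with its SE (vertical axis) for each of the 10 genes, by week (colours). Filled points had an adjusted p under 0.05 and crosses mark those that passed only with the mouse as a block: Cd207 reaches -2.97 and Ccr7 4.70 at week 4, and the class II genes and Cd209a carry the crosses at week 2; Ccr7 was not tested at weeks 1 and 2.

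Class II molecules pair an alpha with a beta chain. H2-Aa (17:34282744-34287823, minus strand) and H2-Ab1 (17:34257689-34269419, plus strand) encode the chains of I-A, the class II molecule of this strain. H2-Eb1 (17:34305867-34316674, plus strand) encodes the beta chain of I-E, whose alpha chain C57BL/6 mice do not make, so that the strain shows no I-E on its cells although the beta chain gene is transcribed. Cd74 encodes the invariant chain, which holds the groove of new class II molecules until they meet peptides. Ciita (16:10480059-10528418, plus strand) encodes the coactivator without which professional antigen-presenting cells make almost no class II. It does not touch DNA itself and docks on factors bound at a conserved X box and Y box before class II genes.

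The bases before the start of H2-Aa and H2-Eb1 are shown because these elements lie there. RefSeq promoter windows, of 300 bases on build GRCm38.p6, were matched for 6 of the 10 genes: H2-Aa, H2-Eb1, Cd207, Cd209a, Xcr1 and Flt3. Each line gives the 150 bases that end just before the annotated start, with the X box core ACNGATG, the Y box core ATTGG and the cyclic AMP response element TGACGTCA in capitals where they occur on the gene's own strand.
H2-Aa, chr17:34287824-34287973, minus strand: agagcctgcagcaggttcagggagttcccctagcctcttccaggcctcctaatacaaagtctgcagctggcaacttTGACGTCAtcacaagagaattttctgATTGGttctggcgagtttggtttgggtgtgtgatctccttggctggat
H2-Eb1, chr17:34305717-34305866, plus strand: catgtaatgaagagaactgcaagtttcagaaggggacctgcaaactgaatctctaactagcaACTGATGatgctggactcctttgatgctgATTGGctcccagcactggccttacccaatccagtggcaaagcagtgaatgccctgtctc

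In H2-Eb1 the X box core begins 88 bases and the Y box core 59 bases before the start, 29 bases apart. In H2-Aa the letters ACNGATG do not occur on the gene's strand, the cyclic AMP response element begins 74 bases and the Y box core 48 bases before the start, 26 bases apart. Searched on both strands, ACNGATG occurred in 9.85%, ATTGG in 37.4% and TGACGTCA in 1.79% of the 32851 promoter windows of the table, and none of the letters overlap in the windows shown. An X box core followed 25 to 35 bases later by a Y box core on the same strand occurred in 32 of them, or 0.0974%, and a cyclic AMP response element followed likewise in 22, or 0.067%. The X and Y pair was present in H2-Eb1 and in 3 of the 10 other genes of the class II list (H2-Eb2, H2-DMb1 and H2-DMb2). The windows of Cd207, Cd209a and Flt3 held none of these letters, and that of Xcr1 held a Y box core alone, on the opposite strand. The distances were chosen after the sequences were read, and a match is a description of letters, not evidence of binding.

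At week 2 the class II genes stood high in radiated skin. H2-Ab1 read 196, 84.3, 248 and 219 CPM in radiated and 62.4, 53.8, 80.6 and 58.1 CPM in control skin. Cd74 (18:60803848-60812652, plus strand) read 402, 172, 632 and 441 CPM against 119, 108, 151 and 112 CPM. Every radiated sample lay above every control sample for both genes, and the lowest radiated sample was replicate 2 each time. H2-Eb1, at 222, 90.2, 223 and 222 CPM against 69.0, 59.4, 87.1 and 67.3 CPM, showed no overlap either. H2-Aa, at 222, 82.8, 245 and 166 CPM against 55.7, 52.0, 86.7 and 63.0 CPM, overlapped in that replicate 2 alone.

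The log2 fold changes of week 2 were 1.75 for Cd74 (SE 0.333), 1.55 for H2-Ab1 (SE 0.301), 1.47 for H2-Aa (SE 0.315) and 1.42 for H2-Eb1 (SE 0.279). Each was higher in 4 of 4 pairs. None passed in the fit of the 8 libraries alone, with adjusted p from 0.118 to 0.135, and all passed with the mouse as a block, with adjusted p from 0.0181 to 0.0197. DESeq2, the fit of all 35 libraries and the fit without radiated replicate 2 also called these 4 genes or more, with 6, 6 and 5 members in all. That last fit was the only 1 of the 8 leaving out a library that called any of the 4. Their adjusted p reached 0.4135 without control replicate 2. The shares of all genes called under these 3 settings are not given here. Ciita stood at 37.6 ± 19.1 against 16.1 ± 4.40 CPM, a difference of 1.23 on the log2 scale (SE 0.377, adjusted p = 0.203; 0.0733 with the block). DESeq2, the fit of all 35 libraries and the fit without radiated replicate 2 called Ciita, with adjusted p of 0.0347, 0.0301 and 0.0465. The other fits leaving out a library did not call it, with adjusted p up to 0.491.

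Ptprc, the pan-leukocyte gene CD45, read 185, 57.1, 97.8 and 127 CPM in radiated skin of week 2 and 40.4 ± 13.5 CPM in control skin, a difference of 1.53 on the log2 scale (SE 0.358, adjusted p = 0.141; 0.00619 with the block). Its lowest radiated value was again replicate 2. The summed level of 9 macrophage markers was 489 to 2143 CPM in radiated and 191 to 491 CPM in control skin at week 2. The part of these cells in the class II levels was not tested. The summed level of 5 B cell markers, another class II-bearing cell type, was 0.645 to 3.08 CPM over all groups, and Ms4a1, a B cell surface gene, read 0.761 ± 0.176 CPM in radiated skin of week 4.

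At weeks 3 and 4 none of these 4 genes passed the test. At week 3 H2-Ab1 read 80.6, 150, 292 and 122 CPM in radiated and 92.7, 136, 112 and 88.1 CPM in control skin, and Cd74 read 178, 338, 782 and 257 CPM against 160, 251, 212 and 193 CPM. Radiated replicate 3 stood apart as the highest in both. The log2 fold changes were 0.96 for Cd74 (SE 0.405, adjusted p = 0.107, higher in 4 of 4 pairs), 0.62 for H2-Ab1 (SE 0.348, adjusted p = 0.214), 0.35 for H2-Eb1 (SE 0.257, adjusted p = 0.336) and 0.33 for H2-Aa (SE 0.34, adjusted p = 0.495). Cd74 passed at week 3 under total-count scaling (adjusted p = 0.0378), and its adjusted p was 0.28 without radiated replicate 3.

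At week 4 the samples were closer together. H2-Ab1 read 92.6, 99.6, 69.8 and 70.9 CPM in radiated and 85.3, 75.6, 74.1 and 72.2 CPM in control skin, and Cd74 read 186, 205, 201 and 121 CPM against 156, 139, 148 and 137 CPM. The log2 fold changes were 0.30 (SE 0.152, adjusted p = 0.124) for Cd74, 0.12 (SE 0.128, adjusted p = 0.453) for H2-Ab1, 0.10 (SE 0.161, adjusted p = 0.63) for H2-Eb1 and 0.07 (SE 0.144, adjusted p = 0.727) for H2-Aa. Cd74 passed at week 4 without radiated replicate 4, its lowest radiated sample (0.45, adjusted p = 0.00229). At week 1 the differences of Cd74, H2-Ab1, H2-Eb1 and H2-Aa were 0.41, 0.32, 0.11 and 0.20, with adjusted p from 0.587 to 0.885.

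Ciita passed the test in both weeks, and its difference from those of the class II genes was not tested. It read 30.1, 46.7, 72.2 and 44.8 CPM in radiated and 19.8, 25.0, 27.6 and 17.7 CPM in control skin at week 3, and 36.5, 33.6, 27.9 and 28.5 CPM against 23.3, 21.2, 20.6 and 19.2 CPM at week 4. The groups did not overlap in either week. Its log2 fold change was 1.13 (SE 0.264, adjusted p = 0.0128) at week 3 and 0.59 (SE 0.116, adjusted p = 0.0022) at week 4. The week 4 call was lost in the fit of all 35 libraries (adjusted p = 0.139).

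Other regulators of class II were also measured. Of the 8 other genes of that list, 1 was lower at week 3, and 1 was higher and 4 were lower at week 4. Rfx5, a subunit of the X box factor, read 18.7 ± 3.86 against 17.7 ± 2.32 CPM at week 3 (adjusted p = 0.689) and 20.3 ± 3.91 against 27.2 ± 1.21 CPM at week 4 (-0.42, adjusted p = 0.0309), and its partner Rfxap was lower at week 4 by a log2 fold change of -0.64. Creb1, the gene of a factor that binds cyclic AMP response elements, was lower by -0.44 (adjusted p = 0.0471; 0.0672 with the block) and -0.37 (adjusted p = 0.00458). Marchf1, the ubiquitin ligase that removes class II from the surface, read 40.9 ± 9.77 against 23.6 ± 12.3 CPM at week 3 (adjusted p = 0.117) and rose by 1.37 (adjusted p = 6.87e-05) at week 4.

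Further along the class II path, the proteases rose and the peptide editors did not pass the test. Of the 8 genes of that list tested other than the members, 3 were higher at week 3 and 4 at week 4, and none was lower in either week. Ctss, the protease that trims the invariant chain, read 272, 210, 319 and 132 CPM in radiated skin of week 3 and 254, 181, 199 and 239 CPM in that of week 4, against 32.8 to 96.1 and 22.4 to 25.6 CPM in control skin. Its log2 fold changes were 1.94 (adjusted p = 0.00973) and 3.22 (adjusted p = 5.39e-07), beside 2.38 and 3.25 for Lgmn and 1.56 and 1.85 for Ctsl, lysosomal proteases that macrophages make in quantity. H2-Eb2, a second I-E beta chain gene, rose by 1.404 at week 4 from a low level, 0.546 ± 0.312 to 1.41 ± 0.485 CPM.

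H2-DMa and H2-DMb1, the chains of the peptide editor H2-M, read 19.9 ± 6.95 against 17.9 ± 6.52 CPM and 23.6 ± 12.2 against 18.6 ± 5.10 CPM at week 3. At week 4 they read 11.5 ± 2.42 against 13.0 ± 0.656 CPM and 13.8 ± 3.86 against 16.0 ± 0.853 CPM. Neither passed in these weeks (adjusted p from 0.369 to 0.698). H2-Oa, a chain of the inhibitor of H2-M, was under the filter, at 0.311 ± 0.215 against 0.115 ± 0.0341 CPM and 0.235 ± 0.211 against 0.152 ± 0.0601 CPM.

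**Figure D3:**
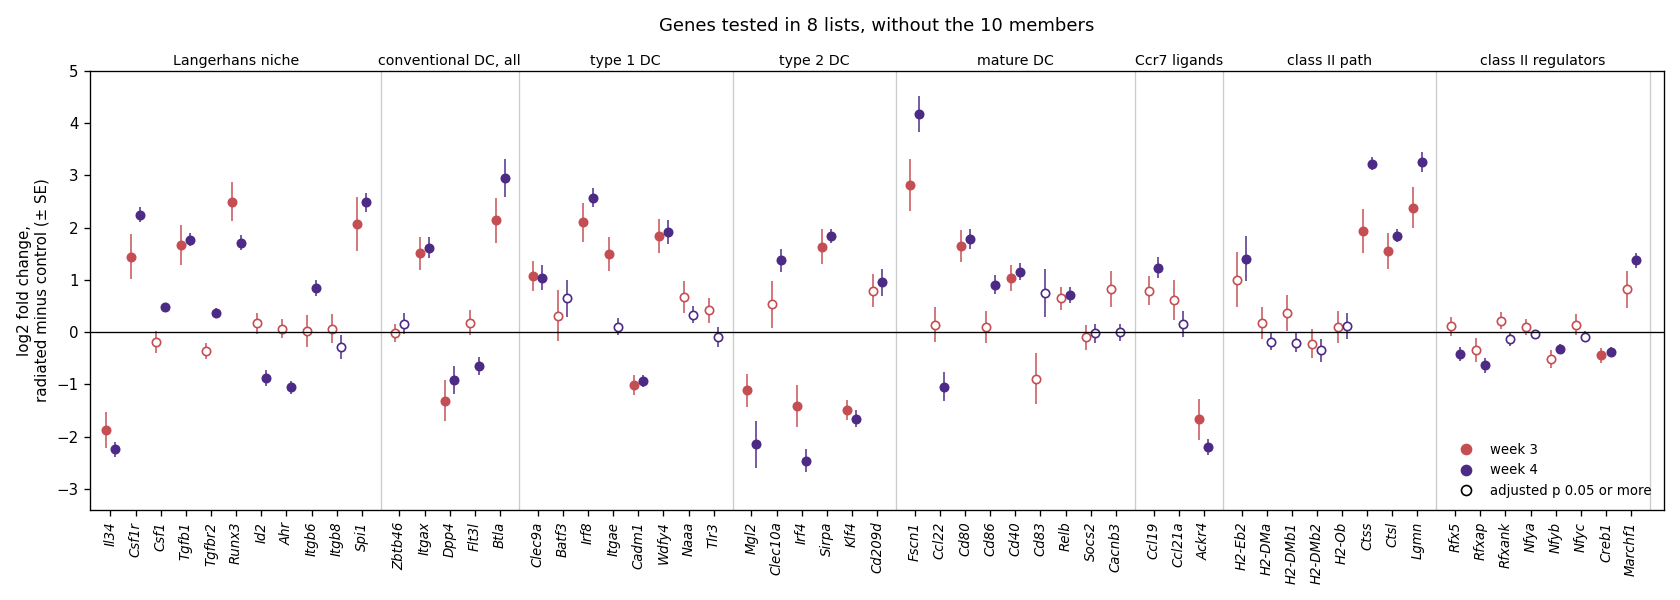
Log2 fold change of radiated against control skin with its SE at weeks 3 and 4 (colours) for the genes tested in 8 lists of dendritic cell, Langerhans cell and class II genes, without the 10 members; filled points had an adjusted p under 0.05. Il34, Ackr4, Mgl2 and Irf4 lie below 0 in both weeks, and Fscn1, Ctss and Lgmn are the highest points of week 4.

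Ptprc and the markers of several leukocytes were raised in weeks 3 and 4. Ptprc read 410, 312, 369 and 167 CPM in radiated and 62.6, 115, 101 and 69.2 CPM in control skin at week 3, and 344, 236, 211 and 303 CPM against 62.5, 72.4, 63.4 and 59.3 CPM at week 4. Its log2 fold changes were 1.88 (adjusted p = 0.00304) and 2.10 (adjusted p = 7.6e-06). Of 9 macrophage markers, 4 were higher at week 3 and 9 at week 4, with Cd68 up by 1.68 and 3.28, and Adgre1 by 1.11 (adjusted p = 0.0587, not passing) and 2.03. All 4 neutrophil markers tested were higher in both weeks. Of 4 monocyte markers, 3 were higher at week 3 and 4 at week 4, with Chil3 up by 4.62 and 4.26, Ly6c2 by 1.98 and 1.45, and the chemokine receptor gene Ccr2 by 1.16 and 1.93. The part of monocytes in the Cd209a values was not tested. T cell markers were mixed, with 1 of 5 tested higher at week 3, and 2 of 6 higher and 1 lower at week 4. Cd4 rose by 1.94 and 2.89, and Cd3e, a chain of the T cell receptor complex, was lower at week 4, at 6.13 ± 1.15 against 14.4 ± 1.49 CPM (-1.23, adjusted p = 0.000244).

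Set against Ptprc in the same library, the class II genes were lower in radiated skin of these weeks. The CPM ratio of H2-Ab1 to Ptprc had a median of 0.605 (0.197 to 0.792) in radiated and 1.22 (1.11 to 1.48) in control skin at week 3, and of 0.300 (0.234 to 0.422) against 1.19 (1.04 to 1.37) at week 4. At week 2 the medians were 1.60 and 1.68, and the groups overlapped. For Cd74 the medians were 1.31 against 2.36 at week 3, with 1 radiated sample inside the control range, and 0.703 against 2.32 at week 4. For Cd207 the ratio at week 4 ran from 0.00179 to 0.00294 in radiated and from 0.0574 to 0.0881 in control skin. For Flt3 the ranges overlapped at week 3, 0.0293 to 0.0633 against 0.0202 to 0.0798, and at week 4 every radiated sample lay below every control sample, 0.0347 to 0.0566 against 0.0677 to 0.0809. These ratios were formed after the values were seen and were not tested, and Ptprc level differs between kinds of leukocyte.

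**Figure D4:**
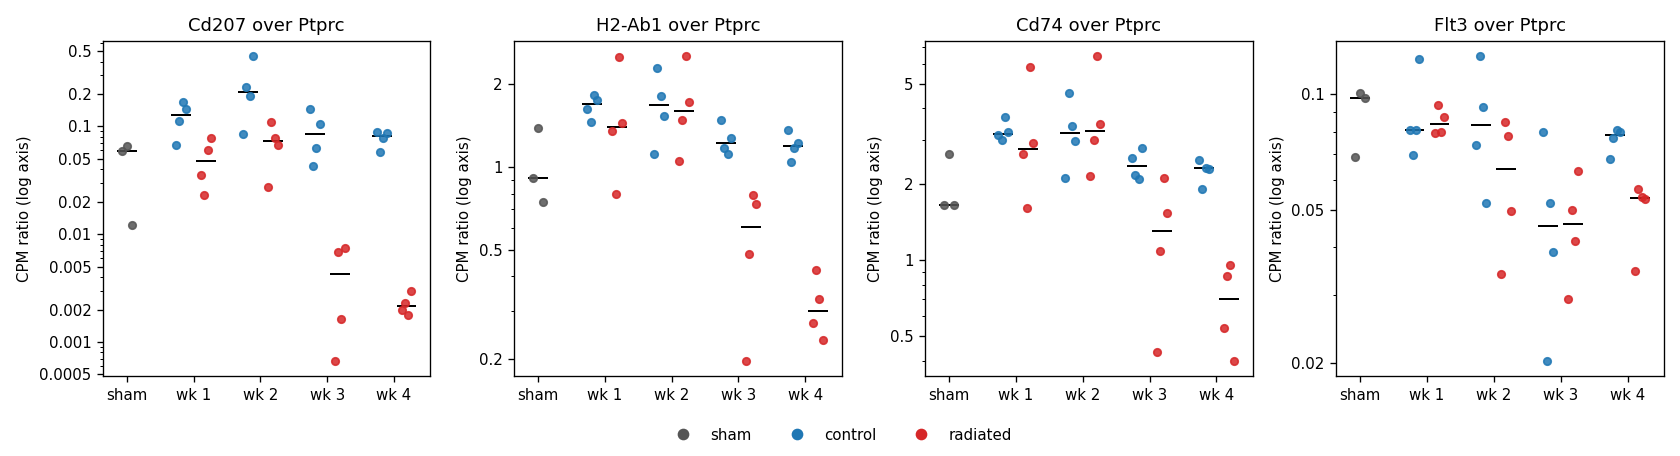
CPM of Cd207, H2-Ab1, Cd74 and Flt3 divided by the CPM of Ptprc in the same sample (log axes), by group and week; points are samples and black lines are medians. The H2-Ab1 ratio of radiated skin falls to a median of 0.300 at week 4, below all control samples of that week, as do the Cd207, Cd74 and Flt3 ratios of week 4.

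Other genes that class II genes often move with were mixed. Ifng, the cytokine that induces Ciita in most cells, was at 0 in all radiated and control samples of week 3 and at 0.032 ± 0.064 and 0.00961 ± 0.0192 CPM at week 4. At 3 counts a library this depth would not show levels under 0.105 to 0.173 CPM. Of the 11 interferon gamma pathway genes tested, 3 were higher at week 3, and 6 were higher and 1 lower at week 4. The largest changes of week 3 were those of Cxcl10, a chemokine gene that interferons induce, which rose by 3.88 (adjusted p = 0.00423) from a mean of 0.621 to 9.11 CPM, and Cd274, which encodes PD-L1 and rose by 1.47 (adjusted p = 0.00284) and, at week 4, by 0.71 (adjusted p = 0.0132). Irf1, a transcription factor that interferon induces, rose by 0.83 (adjusted p = 0.0184) and 0.52 (adjusted p = 0.00317).

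MHC class I genes, which nearly all cells express, were also measured. Of the 11 class I presentation genes tested, 1 was lower at week 3, and 2 were higher and 7 lower at week 4, where 24.2% of all genes were higher and 24.2% lower. At week 4 B2m and H2-K1 had log2 fold changes of -0.42 (adjusted p = 0.0245) and -0.33 (adjusted p = 0.0264). Nlrc5, the class I counterpart of Ciita, had -0.78 (adjusted p = 0.000674), from 81.7 ± 8.22 to 47.2 ± 8.23 CPM. At week 3 these 3 genes did not pass, with adjusted p of 0.88, 0.999 and 0.113.

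Against the 3 sham samples, which all the weekly comparisons share, and with the same radiated libraries as in the comparisons above, the members called in radiated skin were 0 of 9 at week 1 (1.75% of all genes called), 1 of 9 at week 2 (5.06%), 4 of 10 at week 3 (18.2%) and 4 of 10 at week 4 (26.7%). At week 1, 4 members had an unadjusted p under 0.05, as had 3021 of all 18228 genes tested, and DESeq2 called 1 member. The one of week 2 was Cd74, with a difference of 1.89 on the log2 scale (SE 0.452, adjusted p = 0.0476) that 1 of the 7 fits leaving out a library kept. At week 3 they were Flt3, Ccr7, Cd74 and Ciita, all higher, with Cd74 at 1.84 (adjusted p = 0.0485, kept in 2 of 7) and Ciita at 1.15 (adjusted p = 0.0302, kept in 3 of 7). Ciita at week 4 was 0.53 higher (adjusted p = 0.0437, kept in 2 of 7). Sham skin differed from radiated skin in hair follicle markers too. The summed level of 5 such markers was 761.5 to 8483 CPM in sham skin. In radiated skin it was 6.69 to 51.6, 4.60 to 11.05, 2.29 to 373 and 5.62 to 2252 CPM at weeks 1 to 4. The part of this difference in the sham comparisons was not tested.

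No member was called in control against sham skin, with 9 tested in each week. All genes were called there at 4.92%, 2.44%, 11.4% and 3.65% in weeks 1 to 4. Members with an unadjusted p under 0.05 numbered 2, 1, 4 and 0, and DESeq2 called 1, 0, 4 and 0. Over all genes, 4880 of 17893, 3765 of 17855, 5311 of 17907 and 3947 of 17925 had an unadjusted p under 0.05 in edgeR's test. The share of all genes that DESeq2 called is not given here. The 4 members of week 3 were Cd74, H2-Aa, H2-Ab1 and H2-Eb1, with log2 fold changes of 0.86 to 0.90, and the low sham replicate 3 enters each of them.

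Per kilobase of merged exon length, the order of the levels could be set out. Cd74 was highest in sham skin, at 66.4 ± 28.9 CPM per kb (SD, n = 3). H2-Eb1, H2-Ab1 and H2-Aa followed at 29.2 ± 15.3, 22.6 ± 10.9 and 15.2 ± 8.06. The ranges of these 3 overlapped, but every sham library held them in that order. Then came Cd209a, Ciita and Cd207 at 3.01 ± 1.51, 2.37 ± 0.353 and 1.86 ± 1.35, whose order differed between the libraries. Xcr1 and Flt3 lay at 0.786 ± 0.272 and 0.781 ± 0.196, and Ccr7 at 0.081 ± 0.0709. In control skin of week 4 Cd207 ranked above Ciita, Flt3, Xcr1 and Ccr7 at 3.25 ± 0.378 CPM per kb. In radiated skin of week 4 it was the lowest of the 10 at 0.410 ± 0.143, next to Xcr1 at 0.543 ± 0.216 and Ccr7 at 0.640 ± 0.180. The ranges of the 3 overlapped. Within libraries, Cd207 lay below Xcr1 in every one and below Ccr7 in all but replicate 1.

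The proportions among the class II genes varied less than their levels, and the ranges of radiated and control skin overlapped in most weeks. The ratio of Cd74 to H2-Ab1 in CPM ran from 1.71 to 2.89 over all 35 libraries, with both extremes in radiated skin of week 4. At week 2 it was 2.017 to 2.55 in radiated and 1.88 to 2.01 in control skin, without overlap but by a narrow margin. The ratio of H2-Aa to H2-Ab1 at week 3 was 0.767 to 0.885 in radiated and 0.927 to 1.06 in control skin, again without overlap. Both ratios overlapped between radiated and control skin in the other weeks, and the ratio of H2-Eb1 to H2-Ab1 overlapped in every week. These ratios were not tested. Of the genes averaging 1 CPM or more, the 5 whose standardised log2 CPM profile over the 35 libraries lay nearest to that of H2-Ab1 were Cd74, H2-Eb1, H2-Aa, H2-DMb1 and H2-DMa, with root mean square differences of 0.203, 0.261, 0.265, 0.348 and 0.443, where 0 is an identical profile.

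The same measure was computed for 3 further genes. Those nearest to Cd207 were Hspb8, Kif13a, Zfyve9, Rora and Osgin2, at 0.4997 to 0.5083, all with a higher mean level than Cd207. Those nearest to Ccr7 were Htr7, Trpv2, Runx3, Itgax and Adgra2, at 0.481 to 0.536. For Xcr1 the nearest were Zfp995, Olfr263, Polk, Prr15 and Rsph9, at 0.834 to 0.882, farther than the 5 neighbours of each of Cd207, Ccr7 and H2-Ab1. The 35 points share the same groups and libraries, so a small difference describes these samples only.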

How the data were processed

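The authors deposited 1 table of estimated counts per gene for the 35 samples. Per the labels' protocols, an RNeasy kit was used for the RNA, and Kallisto and DESeq2 for the analysis, and the submitters' processing notes name Trim Galore 0.6.7, kallisto 0.46.2 and mm10. The transcriptome release is not given in the sources used here. Estimated counts were rounded to whole numbers.

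Each comparison was fitted on its own 7 or 8 libraries with edgeR 4.0.16 (R 4.3.3): filterByExpr, TMM scaling (factors 0.816 to 1.16), the quasi-likelihood F test and Benjamini-Hochberg adjustment over all genes tested. A model over the 32 libraries that are not sham gave the change over weeks. Positions and merged exon lengths come from GENCODE M21 (GRCm38). DESeq2 1.42.0, other scalings, no filter, 1 fit of all 35 libraries, the mouse as a block and each library left out were alternatives. The scripts were tested on simulated data. Labels do not say that samples of a group came from separate mice; if they did not, p-values measure only the spread between samples.

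The pairing of same-numbered samples comes from the numbers of mice and samples. The deviations of same-numbered samples from their group means correlated on average by 0.071, 0.173, 0.053 and -0.02 at weeks 1 to 4 over 19813 genes, against -0.024, -0.057, -0.017 and 0.007 for other pairs. No 2 libraries within a group agreed within sampling noise (51 pairs, smallest reduced chi-square 21.2).

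The genes and the 23 marker lists were chosen with earlier results of these data known. Genes named were the 10 members, 34 genes of the lists fixed by name (some are not reported here), up to 3 genes per list and week with the largest change among those called, at a mean of at least 1 CPM and in the same direction in 4 of 4 pairs, and the 5 nearest profiles of Cd207, Xcr1, Ccr7 and H2-Ab1. Cadm1, Id2 and Ahr were named after their values were seen. Ifi30 of the class II list was not matched.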

Additional observations from a re-analysis of the deposited data

Results flagged for a closer look

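In control skin of week 1 the highest Cd207 sample, 10.9 CPM, stood far from the other 3 (gap of 0.914 of the group's range). In radiated skin of week 2 the lowest H2-Eb1 sample, 90.2 CPM, stood far from the other 3 (gap of 0.991 of the range). Of 80 groups of 4 samples examined in this way, 2 stood out, and chance gives about 1 in 20.

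The radiated minus control difference itself differed between weeks for Cd207 (adjusted p = 0.00534) and Flt3 (adjusted p = 0.0374), and between weeks 2 and 3 for Cd207 (adjusted p = 0.0237), by edgeR's test of the interaction.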

How the results depend on the processing

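For the 16 counts of members called, 151 of 188 alternative values lay within 1.5 times the main count. In radiated against control skin of week 2 (main count 0), DESeq2 and the fit of 35 libraries gave 6 and the replicate block 5, and leaving out a library gave 0 to 5. Against sham, radiated skin of week 1 (0) had 1 with DESeq2 and 0 to 1 without a library. Week 2 (1) had 4 with no filter, with DESeq2 and with the fit of 35 libraries, and 0 to 4 without a library. Week 3 (4) had 8 with the fit of 35 libraries and 1 to 5 without a library, and week 4 (4) had 2 to 4. In control against sham, DESeq2 gave 1 at week 1 and 4 at week 3. For the change over weeks (2), no filter gave 1, the replicate block 5 and DESeq2 4, and leaving out a number gave 0 to 1. The block added Cd209a, H2-Ab1 and H2-Eb1 there. For the step from week 2 to 3 (1) leaving out a number gave 0 to 1. The block changed no other count of members by over 1.5 times. Of 649 alternative log2 fold changes, 575 kept their direction and side of the threshold, 37 lost the threshold, 25 gained it and 12 turned direction. These belong to 48 results. They are radiated against control skin, and the members called against sham in radiated skin of weeks 2 to 4 or in the step from week 2 to 3. Other sham comparisons are not counted, and some turned too, such as Xcr1 in radiated skin of week 1 (-0.051 to 0.609). Those that turned did so when a library was left out: Cd207 at week 2 (-0.59 to 0.14), Cd209a at week 1 (-0.37 to 0.063) and week 3 (-0.21 to 0.49), H2-Aa at week 1 (-0.006 to 0.46), week 3 (-0.14 to 0.54) and week 4 (-0.022 to 0.19), H2-Eb1 at week 1 (-0.089 to 0.34) and week 4 (-0.019 to 0.22) and Xcr1 at week 3 (-0.083 to 0.41). The cause was not tested. Scaling by total counts moved the all-gene median of radiated against control skin (log2) from 0.046 to 0.182 at week 1 and from 0.08 to 0.317 at week 3, and the genes called at week 3 from 2408 higher and 2397 lower to 4054 and 1270. The low counts of Ccr7 limit its fold changes.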
